A study of Homo sapiens with 9 samples.

Results

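The 32 genes described here encode chaperones, disulfide isomerases and quality-control proteins of the endoplasmic reticulum, together with the sensors and transcription factors that regulate them. They were chosen by symbol, as listed members of this pathway, and all 32 were found among the 27407 features of the deposited table. By role, 9 belong to the folding system built around Hsp70 and Hsp90 chaperones, 4 are disulfide isomerases, 2 are lectin chaperones, 10 act in degradation, 3 are stress sensors or transcription factors, and 4 act in protein entry or exit. RNA sequencing was done on human cells labelled Weri-RB1/CRP, which the labels give as a carboplatin-resistant retinoblastoma line, in 3 groups of 3 libraries. All cells carried a short hairpin RNA, which lowers transcripts of matching sequence: shSNHG1#1 or shSNHG1#2, made to target SNHG1, a gene of a long noncoding RNA, or shNC, given as the control. Cultures grew in RPMI medium with serum, and neither carboplatin treatment nor parental cells appear in the labels. Nothing in the labels tells whether the cells were clones or pools, or whether each library came from its own culture. The p-values therefore reflect variation among these libraries, which could be technical. SNHG1 was not analysed here, and its knockdown is therefore not checked by these values.

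The endoplasmic reticulum folds and glycosylates proteins that enter the secretory pathway. HSPA5 (BiP) and its partners hold unfolded chains, disulfide isomerases form and rearrange disulfide bonds, and calnexin and calreticulin bind glycoproteins until they fold. Chains that fail are drawn back to the cytosol and degraded around the ligase SYVN1 (HRD1). When unfolded proteins accumulate, the sensors IRE1 (encoded by ERN1), ATF6 and PERK induce many of these genes through response elements in their promoters, a program called the unfolded protein response.

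Depth was even, with 21502093 to 21606498 estimated counts per library. The cell label was set against marker genes: all 10 photoreceptor and retinoblastoma markers measured averaged under 1 FPKM (fragments per kilobase of transcript, scaled to mapped fragments) in each group. CRX, a photoreceptor transcription factor, did not exceed 0.03 FPKM. Of 4 epithelial markers, the keratin genes KRT8 and KRT18 averaged 775 and 722 FPKM with shSNHG1#1 and 770 and 709 FPKM with shSNHG1#2, against 783 and 762 FPKM in shNC, CDH1 averaged 22.2 and 24.4 FPKM with shSNHG1#1 and shSNHG1#2, against 27.4 FPKM in shNC, and EPCAM 3.30 and 3.22 FPKM, against 1.69 FPKM. The near-absent photoreceptor markers and high keratin levels go against the labelled origin, and the cells are called here by their label alone. Library shSNHG1#1 replicate 1 stood apart in fibroblast and plasma cell transcripts. DCN was at 9.80 FPKM there and at most 0.81 FPKM elsewhere, COL1A2 at 1.56 against at most 0.11 FPKM, and JCHAIN at 2.47 against at most 0.47 FPKM. Summed over the 3 fibroblast markers, levels were 2.74 to 14.9 FPKM with shSNHG1#1 and 2.66 to 2.87 FPKM with shSNHG1#2, against 1.55 to 2.16 FPKM in shNC. Over the 3 plasma cell markers they were 66.6 to 78.9 and 71.5 to 73.5 FPKM, against 53.8 to 56.8 FPKM in shNC, nearly all from SDC1, which epithelial cells also express, while MZB1 was at 0 in all libraries of shSNHG1#1 and shNC. The part of these differences in the results was not tested. Member counts are given with and without that library. The 2 largest features without a gene symbol took 13.3 to 14.8% of counts with shSNHG1#1 and 12.8 to 13.2% with shSNHG1#2, against 7.06 to 7.64% in shNC. With both left out of the fit, 9 members rose and 14 fell with shSNHG1#1, beside 4366 and 4661 of all features tested. With shSNHG1#2, 5 members rose and 18 fell, beside 4109 and 4561 of all features. In RNA from whole cultures, fewer cells of a type and less RNA per cell cannot be told apart.

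Promoters of many genes in this pathway are known to carry elements through which ATF6 and XBP1 act, and the matches found are shown because members that hold the same element moved in opposite directions. RefSeq windows on GRCh38.p14, which run from 250 bases before to 50 bases after a gene's start, were matched for 28 of the 32 genes. Both strands were searched for ERSE (CCAAT and CCACG with 9 bases between), ERSE-II (ATTGG and CCACG with 1 base between) and the core of the unfolded protein response element (TGACGTG). ERSE lay in 7 of 28 members (25%), against 0.0916% of all 27305 genes with a window. ERSE-II lay in 3 of 28 (10.7%), against 0.0696% of all genes, and TGACGTG in SEC61A1 and HYOU1 (7.14%), against 2.4%. The segments below run 5′ to 3′ on the strand of the element, with the element in capitals and 10 flanking bases on each side.
HSPA5, ERSE, chr9:125241381-125241419, minus strand: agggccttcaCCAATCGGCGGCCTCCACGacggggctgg
HSP90B1, ERSE farther from the start, chr12:103930206-103930244, plus strand: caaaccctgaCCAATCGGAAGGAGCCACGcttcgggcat
HSP90B1, ERSE nearer to the start, chr12:103930311-103930349, minus strand: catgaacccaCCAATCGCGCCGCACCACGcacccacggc
CALR, ERSE, chr19:12938374-12938412, minus strand: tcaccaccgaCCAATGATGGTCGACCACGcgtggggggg
PDIA6, ERSE, chr2:10812843-10812881, minus strand: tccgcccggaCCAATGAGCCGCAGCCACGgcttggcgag
CANX, ERSE, chr5:179698768-179698806, plus strand: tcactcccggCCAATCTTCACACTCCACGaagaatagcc
XBP1, ERSE, chr22:28800593-28800631, minus strand: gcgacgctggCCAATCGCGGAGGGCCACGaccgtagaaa
CRELD2, ERSE, chr22:49918544-49918582, minus strand: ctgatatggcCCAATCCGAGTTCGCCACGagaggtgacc
HERPUD1, ERSE-II, chr16:56932015-56932045, plus strand: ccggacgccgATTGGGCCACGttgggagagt
HYOU1, ERSE-II nearer to the start, chr11:119057264-119057294, plus strand: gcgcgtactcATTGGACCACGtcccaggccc
HYOU1, ERSE-II farther from the start, chr11:119057370-119057400, plus strand: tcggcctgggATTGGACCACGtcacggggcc
SDF2L1, ERSE-II, chr22:21642104-21642134, minus strand: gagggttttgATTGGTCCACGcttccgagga

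The TGACGTG match of HYOU1 lies on the strand of the gene, opposite to its farther ERSE-II match, which it overlaps. HERPUD1, the member that fell the most with both hairpins, and CRELD2, which rose the most with shSNHG1#1 and about as much as EDEM3 with shSNHG1#2, are shown with the 250 bases before their start, on the plus strand, which is the strand of each gene. In CRELD2 the element lies on the strand opposite to the gene, so that its capitals are the reverse complement of the element above.
HERPUD1, chr16:56931892-56932141: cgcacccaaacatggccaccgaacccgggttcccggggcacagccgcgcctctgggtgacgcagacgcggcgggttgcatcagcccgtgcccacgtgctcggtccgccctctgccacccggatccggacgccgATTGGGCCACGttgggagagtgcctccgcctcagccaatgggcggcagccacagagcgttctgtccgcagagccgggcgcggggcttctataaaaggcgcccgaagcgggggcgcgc
CRELD2, chr22:49918384-49918633: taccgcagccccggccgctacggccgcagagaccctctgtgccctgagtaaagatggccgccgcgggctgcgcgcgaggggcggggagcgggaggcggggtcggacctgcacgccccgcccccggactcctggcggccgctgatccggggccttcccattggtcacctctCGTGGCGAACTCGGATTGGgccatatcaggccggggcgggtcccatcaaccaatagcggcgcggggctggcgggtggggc

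The members spanned a wide range of levels. HSP90B1, the Hsp90 of this compartment (GRP94), stood highest, with 489, 521 and 506 FPKM with shSNHG1#1, 454, 447 and 483 FPKM with shSNHG1#2 and 598, 609 and 580 FPKM in shNC. CALR (calreticulin), P4HB (the protein disulfide isomerase PDI), CANX (calnexin) and the disulfide isomerases PDIA4, PDIA6 and PDIA3 followed, and these 7 genes averaged above 100 FPKM. Another 23 averaged between 10 and 100 FPKM. HSPA5 stood lower than HSP90B1, at ranks 22 and 1 of the 32 by mean FPKM, a ratio of 25.3 with shSNHG1#1, 24.7 with shSNHG1#2 and 21.9 in shNC. Below 10 FPKM lay only ERN1 and DERL3. The 4 highest genes held 56.8% of the summed FPKM of the members in shNC. Summed over all 32, the level was 2796 to 2828 FPKM with shSNHG1#1 and 2652 to 2702 FPKM with shSNHG1#2, against 3110 to 3137 FPKM in shNC, and the groups did not overlap. As a share of the summed FPKM of features with a gene symbol, which leaves out the unnamed features, the members held 0.759 to 0.777% with shSNHG1#1 and 0.723 to 0.750% with shSNHG1#2, against 0.794 to 0.803% in shNC, a smaller gap that likewise showed no overlap.

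**Figure D1:**
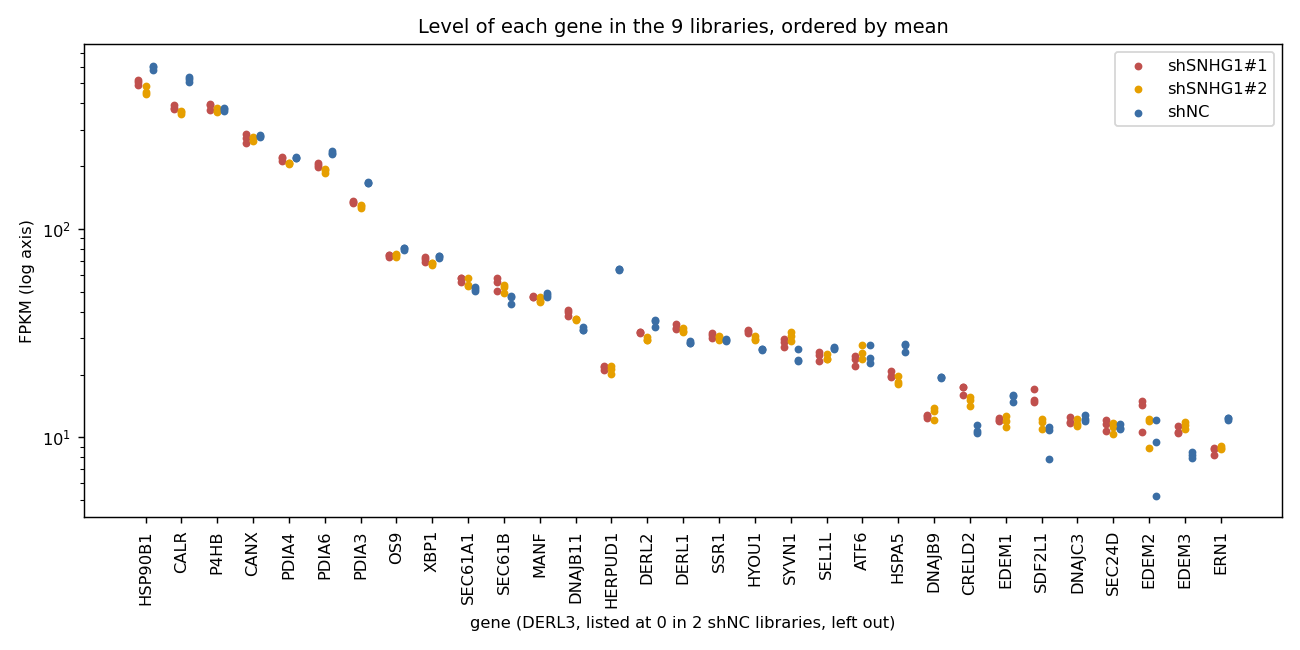
Level of 31 of the 32 genes in each of the 9 libraries (FPKM, log axis), ordered by mean, with 1 point per library. HSP90B1 lies between 446.6 and 608.8 FPKM and ERN1 between 8.22 and 12.35 FPKM, and HERPUD1 shows the widest gap between the hairpin groups and shNC.

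Of the 31 members tested with shSNHG1#1 against shNC, 13 fell and 10 rose at an adjusted p below 0.05 in edgeR's quasi-likelihood test, and 8 did not pass. HERPUD1, which helps to assemble the degradation complex around SYVN1, fell 3.04-fold, and CRELD2, a secreted factor of this compartment, rose 1.49-fold. The share called, 74.2%, stood beside 48.1% of all 18767 features tested and 64% of the 10978 features at or above the level of the lowest tested member, where calls were more frequent. Calls of 1.5-fold or more were fewer: 2 members, HERPUD1 and DNAJB9, both lower (6.45%), against 16.2% of all features and 14.2% of those at the members' levels (7.3% of all features in the lower direction). By direction, 41.9% of members were lower and 32.3% higher, beside 23.5% and 24.5% of all features and 34.1% and 30% at the members' levels. In scaled counts, the shSNHG1#1 and shNC libraries did not overlap for 25 of the 31 members, against 56.3% of all features. The median log2 fold change of the tested members was -0.05, against 0.02 over all features. Without shSNHG1#1 replicate 1, 12 fell and 8 rose. Without shNC replicate 1, 11 fell and 6 rose.

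With shSNHG1#2 against shNC, 18 members fell, 5 rose and 8 did not pass. HERPUD1 fell 3.20-fold, and CRELD2 and EDEM3, which encodes an enzyme that trims mannose from glycoproteins, each rose 1.31-fold. The share called was again 74.2%, against 46.2% of all features and 61.9% of those at the members' levels. Of all features 22.8% were called lower and 23.3% higher, and at the members' levels 33.1% were lower and 28.7% higher, beside 58.1% and 16.1% of the members. Changes of 1.5-fold or more were called for HERPUD1, DNAJB9, HSPA5 and CALR, all lower (12.9%, against 14.2% of all features, 6.38% in the lower direction, and 11.8% of those at the members' levels). Libraries of shSNHG1#2 and shNC did not overlap for 23 of the 31 members, against 55.8% of all features. The median log2 fold change was -0.14, against 0.01 over all features. With libraries scaled by their totals alone, 14 members fell and 8 rose, while over all features 60.9% of calls were higher, beside 50.5% with the scaling used here (TMM). Without shSNHG1#1 replicate 1, which enters this fit through the filter, the scaling and the estimate of spread, 18 fell and 5 rose.

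The hairpins share their control libraries, so their results are given side by side and not as repeats of each other. A pair of changes given for a gene is that with shSNHG1#1 and that with shSNHG1#2, each against shNC. Members called in the same direction with both numbered 18 of 31 (58.1%), against 40% of all features: 5 rose and 13 fell, against 20.3% and 19.7% of all features. The share called with both was not computed at the members' levels. For each hairpin alone, calls were more frequent there, at 64% and 61.9%, against 48.1% and 46.2% of all features. None was called in opposite directions (0.0533% of all features). HERPUD1, DNAJB9, ERN1, HSPA5, CALR, EDEM1, PDIA3, HSP90B1, PDIA6, DERL2, SEL1L, OS9 and XBP1 fell with both, and CRELD2, HYOU1, SYVN1, EDEM3 and ATF6 rose with both. DNAJB11, EDEM2 and SEC24D were called with neither.

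**Figure D2:**
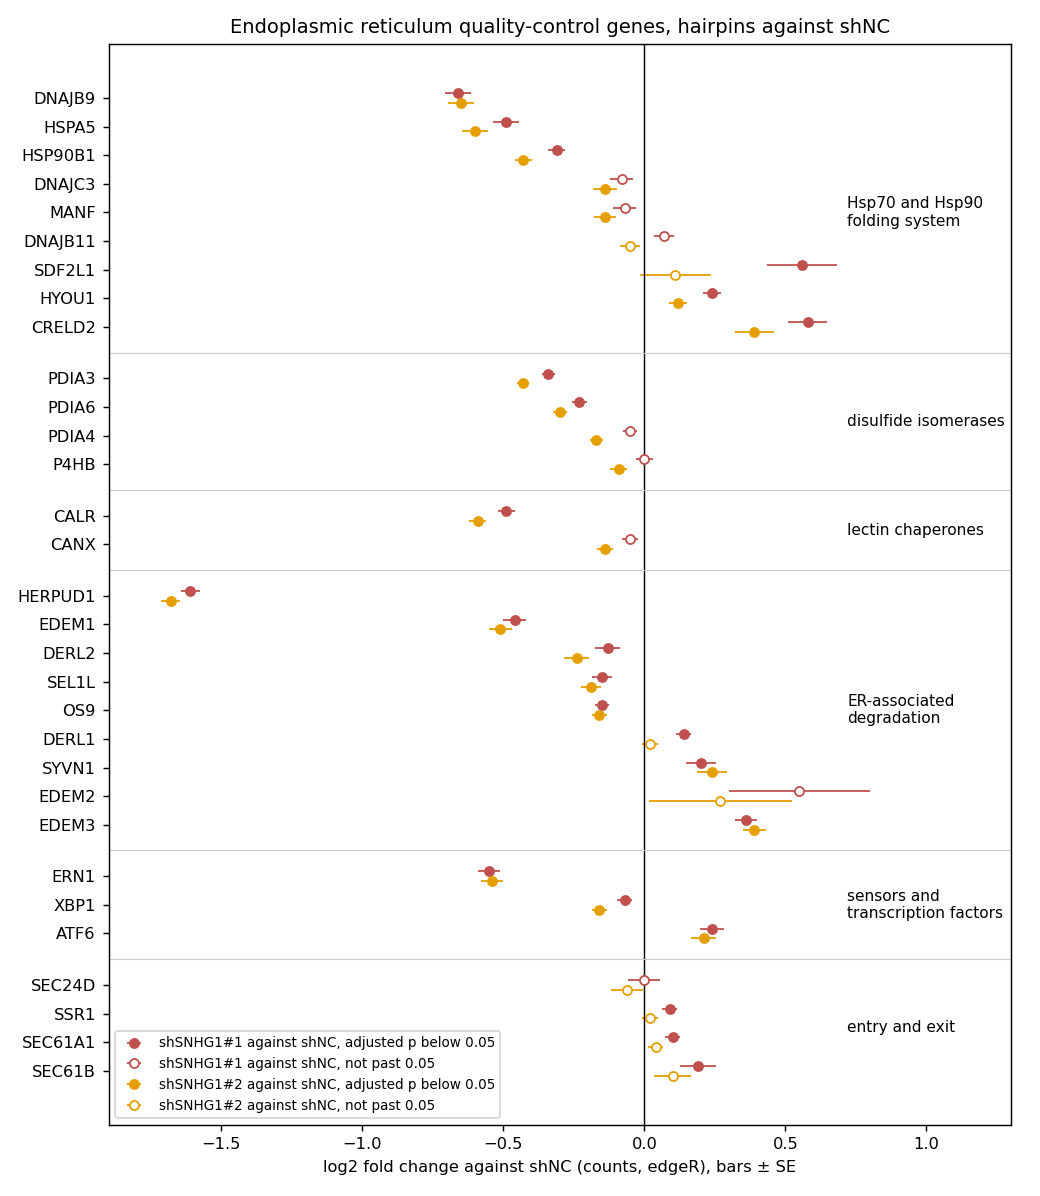
Log2 fold change of 31 genes from counts (points, with bars of ± SE) for shSNHG1#1 (upper point of each pair) and shSNHG1#2 (lower point), each against shNC, grouped by role. Filled points pass an adjusted p of 0.05; HERPUD1 lies at -1.61 and -1.68, and every other gene lies between -0.66 and 0.58.

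In the Hsp70 and Hsp90 folding system, 3 of 9 genes rose and 3 fell with shSNHG1#1, and 2 rose and 5 fell with shSNHG1#2. With shSNHG1#1, 33.3% of these genes were higher and 33.3% lower, beside 30% and 34.1% of features at the members' levels, and with shSNHG1#2 22.2% were higher and 55.6% lower, beside 28.7% and 33.1%. The central chaperones HSPA5 and HSP90B1 fell with both hairpins, and their helpers moved in both directions. HSPA5 had 19.7, 20.8 and 19.5 FPKM with shSNHG1#1, 18.1, 18.4 and 19.7 FPKM with shSNHG1#2 and 25.5, 27.9 and 28.2 FPKM in shNC. The hairpin groups lay below shNC with no overlap. HSPA5, the Hsp70 that also binds and holds back the stress sensors, fell 1.403-fold with shSNHG1#1 (log2 fold change -0.49, SE 0.047, adjusted p = 8.4e-06) and 1.52-fold with shSNHG1#2 (log2 fold change -0.60, SE 0.047, adjusted p = 2.1e-06). HSP90B1, with the levels given above and likewise no overlap between hairpins and shNC, fell 1.24-fold (log2 fold change -0.31, SE 0.03, adjusted p = 1e-05) and 1.34-fold (log2 fold change -0.43, SE 0.03, adjusted p = 1e-06).

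DNAJB9 (ERdj4), a J-domain cochaperone that targets HSPA5 to misfolded chains and to IRE1, fell the most of the folding system. With shSNHG1#1, DNAJB9 was measured at 12.8, 12.3 and 12.7 FPKM, with shSNHG1#2 at 12.1, 13.3 and 13.8 FPKM and in shNC at 19.3, 19.5 and 19.5 FPKM. All 6 hairpin libraries lay below all 3 shNC libraries. The fold was 1.59 with shSNHG1#1 (log2 fold change -0.66, SE 0.046, adjusted p = 6.3e-07) and 1.57 with shSNHG1#2 (log2 fold change -0.65, SE 0.045, adjusted p = 9.1e-07). CRELD2 went the other way. Levels of CRELD2 were 15.9, 17.5 and 17.5 FPKM with shSNHG1#1 and 15.1, 14.1 and 15.6 FPKM with shSNHG1#2, against 10.4, 11.5 and 10.8 FPKM in shNC. Each hairpin library lay above each shNC library. The libraries of shSNHG1#2 lay below those of shSNHG1#1, a difference that did not pass (log2 fold change -0.18, adjusted p = 0.203). CRELD2 rose by a log2 fold change of 0.58 (SE 0.069, adjusted p = 4.6e-05) with shSNHG1#1 and 0.39 (SE 0.069, adjusted p = 0.00085) with shSNHG1#2.

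HYOU1 (GRP170), which exchanges the nucleotide of HSPA5, rose by 0.24 and 0.12 on the log2 scale (adjusted p = 7.1e-05 and 0.00926), to 32.1 ± 0.532 FPKM with shSNHG1#1 and 29.9 ± 0.599 FPKM with shSNHG1#2, against 26.4 ± 0.145 FPKM in shNC (SD, n = 3). Its call with shSNHG1#2 was lost without shNC replicate 3 (adjusted p = 0.0511). SDF2L1, which works with the J-domain protein DNAJB11, rose with shSNHG1#1 (log2 fold change 0.56, adjusted p = 0.00336) and did not pass with shSNHG1#2 (0.11, 95% interval -0.14 to 0.36, adjusted p = 0.518). In shNC its replicate 1, at 7.82 FPKM, lay below the others at 10.85 and 11.22 FPKM. DNAJC3 (p58IPK), a cochaperone, and MANF, a secreted protein that binds HSPA5, had log2 fold changes of -0.08 and -0.07 with shSNHG1#1, which did not pass, and each fell by 0.14 with shSNHG1#2 (adjusted p = 0.0195 and 0.016). Both calls were lost with library totals and by FPKM.

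The disulfide isomerases were lower or not called. PDIA3 (ERp57), which acts on glycoproteins held by calnexin and calreticulin, had the lowest fold change of the 4. PDIA3 had 133, 135 and 136 FPKM with shSNHG1#1, 126, 129 and 131 FPKM with shSNHG1#2 and 168, 166 and 166 FPKM in shNC. The groups did not overlap. PDIA3 fell 1.27-fold (log2 fold change -0.34, SE 0.022, adjusted p = 3.2e-07) and 1.35-fold (log2 fold change -0.43, SE 0.022, adjusted p = 7e-08). PDIA6, which also attaches to IRE1 and PERK, fell by 0.23 and 0.30 on the log2 scale, to 203 ± 3.95 and 191 ± 4.64 FPKM with shSNHG1#1 and shSNHG1#2, against 232 ± 4.08 FPKM in shNC. P4HB had 398, 372 and 395 FPKM with shSNHG1#1, 379, 369 and 364 FPKM with shSNHG1#2 and 370, 374 and 381 FPKM in shNC, and these groups overlapped. It was called lower with shSNHG1#2 (log2 fold change -0.09, adjusted p = 0.0383), a call lost under 7 of the other settings, and not with shSNHG1#1 (0.00, 95% interval -0.06 to 0.06, adjusted p = 0.986).

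PDIA4 (ERp72) was among the few members called between the hairpins, a call lost under 8 of the other settings. With shSNHG1#1, PDIA4 was measured at 222, 213 and 218 FPKM, with shSNHG1#2 at 208, 206 and 207 FPKM and in shNC at 219, 218 and 221 FPKM. The libraries of shSNHG1#2 lay below the others, and those of shSNHG1#1 overlapped shNC. It fell with shSNHG1#2 against shNC (log2 fold change -0.17, SE 0.024, adjusted p = 0.00017) and did not pass with shSNHG1#1 (-0.05, 95% interval -0.10 to 0.00, adjusted p = 0.134).

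The lectin chaperones differed from each other. Levels of CALR were 395, 378 and 381 FPKM with shSNHG1#1 and 369, 357 and 364 FPKM with shSNHG1#2, against 525, 534 and 510 FPKM in shNC. CALR, the soluble lectin, was lower in every hairpin library than in every shNC library and fell 1.41-fold (log2 fold change -0.49, SE 0.03, adjusted p = 2.7e-07) and 1.51-fold (log2 fold change -0.59, SE 0.03, adjusted p = 8.3e-08). CANX, its membrane-bound relative, averaged 272 ± 12.7 and 272 ± 7.04 FPKM with shSNHG1#1 and shSNHG1#2, against 279 ± 3.04 FPKM in shNC. Its log2 fold change was -0.05 with shSNHG1#1 (adjusted p = 0.159) and -0.14 with shSNHG1#2 (adjusted p = 0.00219), and the call with shSNHG1#2 was lost with library totals and by FPKM (adjusted p up to 0.438).

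Degradation genes included the change of greatest size. HERPUD1 had 22.00, 21.1 and 21.7 FPKM with shSNHG1#1, 21.2, 20.2 and 22.04 FPKM with shSNHG1#2 and 63.3, 64.1 and 64.4 FPKM in shNC. The hairpin libraries lay between 20.15 and 22.04 FPKM, below every shNC library. HERPUD1 fell with shSNHG1#1 (log2 fold change -1.61, SE 0.034, adjusted p = 7.3e-11) and with shSNHG1#2 (log2 fold change -1.68, SE 0.034, adjusted p = 6.3e-11), and over all settings tried its log2 fold change stayed between -1.63 and -1.54 with shSNHG1#1 and between -1.71 and -1.58 with shSNHG1#2.

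The EDEM proteins, which trim mannose and mark glycoproteins for degradation, did not move together. With shSNHG1#1, EDEM1 was measured at 12.3, 11.95 and 12.1 FPKM, with shSNHG1#2 at 11.2, 11.9 and 12.6 FPKM and in shNC at 15.8, 14.8 and 15.9 FPKM. EDEM1 fell with both hairpins, with no overlap with shNC (log2 fold change -0.46, SE 0.042, adjusted p = 5.1e-06 for shSNHG1#1; log2 fold change -0.51, SE 0.042, adjusted p = 3e-06 for shSNHG1#2). Levels of EDEM3 were 10.5, 11.3 and 10.6 FPKM with shSNHG1#1 and 10.95, 11.4 and 11.9 FPKM with shSNHG1#2, against 8.51, 7.93 and 8.23 FPKM in shNC. EDEM3 rose with both (log2 fold change 0.36, SE 0.04, adjusted p = 2.8e-05 for shSNHG1#1; log2 fold change 0.39, SE 0.04, adjusted p = 1.6e-05 for shSNHG1#2), and its hairpin libraries all lay above shNC. EDEM2 had 14.2, 10.6 and 15.0 FPKM with shSNHG1#1, 8.87, 12.2 and 11.9 FPKM with shSNHG1#2 and 5.23, 12.1 and 9.52 FPKM in shNC. Its groups overlapped, and its log2 fold changes of 0.55 (SE 0.251) and 0.27 (SE 0.254) did not pass.

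**Figure D3:**
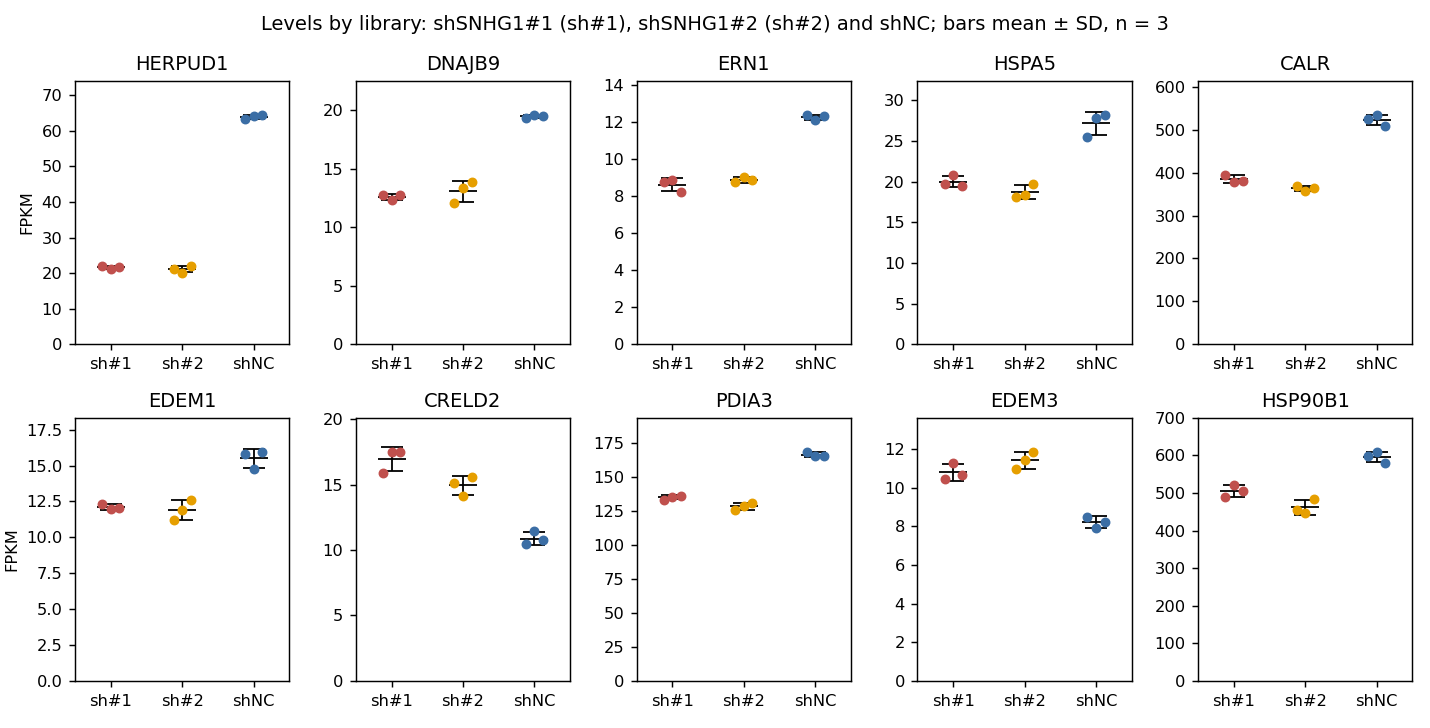
FPKM of 10 genes in every library (points) with mean ± SD (bars, n = 3) for shSNHG1#1, shSNHG1#2 and shNC, with axes from 0. HERPUD1, DNAJB9, ERN1, HSPA5, CALR, EDEM1, PDIA3 and HSP90B1 are lower and CRELD2 and EDEM3 higher in all 6 hairpin libraries than in all 3 shNC libraries.

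The core of the degradation machinery changed by less. SYVN1, its ubiquitin ligase, rose by 0.20 and 0.24 on the log2 scale (adjusted p = 0.00928 and 0.00381), while SEL1L, its membrane partner, fell by 0.15 and 0.19 (adjusted p = 0.00538 and 0.00144). OS9, a lectin that recognises trimmed glycoproteins, fell by 0.15 and 0.16 (adjusted p = 0.00054 and 0.0004). The call of SYVN1 with shSNHG1#1 was lost without shNC replicate 1 (adjusted p = 0.0525). Of the derlins, rhomboid-like proteins of the exit channel, DERL2 fell by 0.13 and 0.24 (adjusted p = 0.0333 and 0.00123), and its call with shSNHG1#1 was lost under 7 settings. DERL1 had 33.5, 33.0 and 35.0 FPKM with shSNHG1#1, 32.03, 32.4 and 33.3 FPKM with shSNHG1#2 and 29.1, 28.2 and 28.3 FPKM in shNC. DERL1 libraries of both hairpins lay above shNC in FPKM. By counts it rose with shSNHG1#1 (log2 fold change 0.14, SE 0.027, adjusted p = 0.00149) and did not pass with shSNHG1#2 (0.02, 95% interval -0.03 to 0.07, adjusted p = 0.585). By FPKM DERL1 was called higher with shSNHG1#2 too (0.19, limma, adjusted p = 0.00102), and with library totals (0.085, adjusted p = 0.0321). The effective length that its count and FPKM imply was 2943 to 2999 bases with shSNHG1#1 and 2850 to 2916 bases with shSNHG1#2, against 3105 to 3111 bases in shNC.

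DERL3, a derlin of secretory tissues, was close to absent. It was listed at 0.04, 0.12 and 0.02 FPKM with shSNHG1#1, 0.31, 0.23 and 0.13 FPKM with shSNHG1#2 and 0.00, 0.09 and 0.00 FPKM in shNC, and was left untested for low counts. Rounded counts summed to 8, 24 and 2 over the libraries of shSNHG1#1, shSNHG1#2 and shNC. The ratio to shNC was 4.0 (exact 95% interval 0.798 to 38.7) with shSNHG1#1 and 12 (2.98 to 105) with shSNHG1#2. These intervals cover counting error only.

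Of the stress sensors and transcription factors, ERN1 fell, XBP1 fell slightly and ATF6 depended on the unit. With shSNHG1#1, ERN1 was measured at 8.77, 8.86 and 8.22 FPKM, with shSNHG1#2 at 8.74, 9.04 and 8.84 FPKM and in shNC at 12.4, 12.1 and 12.3 FPKM. ERN1, which encodes the kinase and endoribonuclease IRE1, was lower in all hairpin libraries than in shNC and fell 1.47-fold (log2 fold change -0.55, SE 0.038, adjusted p = 6.9e-07) and 1.46-fold (log2 fold change -0.54, SE 0.038, adjusted p = 9.6e-07). Levels of XBP1 were 73.1, 69.5 and 72.1 FPKM with shSNHG1#1 and 68.6, 68.9 and 67.2 FPKM with shSNHG1#2, against 74.2, 72.8 and 73.8 FPKM in shNC. XBP1, the transcription factor whose mRNA IRE1 splices, overlapped shNC in FPKM with shSNHG1#1 and lay below it with shSNHG1#2. Its log2 fold change was -0.07 with shSNHG1#1 (adjusted p = 0.0432), a call lost under 8 settings, and -0.16 with shSNHG1#2 (adjusted p = 0.00071). The table gives 1 value per gene, so spliced and unspliced XBP1 are not told apart.

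ATF6 had 22.00, 23.6 and 24.4 FPKM with shSNHG1#1, 23.8, 27.7 and 25.4 FPKM with shSNHG1#2 and 27.8, 23.9 and 22.6 FPKM in shNC. The groups of ATF6 overlapped in FPKM. By counts ATF6, a membrane-bound transcription factor released by cleavage, rose with shSNHG1#1 (log2 fold change 0.24, SE 0.044, adjusted p = 0.00105) and shSNHG1#2 (log2 fold change 0.21, SE 0.044, adjusted p = 0.00237), whereas by FPKM its log2 differences of -0.08 and 0.05 did not pass (limma, adjusted p = 0.472 and 0.67). The effective length that a count and its FPKM imply was 3288 to 3374 bases with shSNHG1#1 and 2859 to 3163 bases with shSNHG1#2, against 2413 to 2815 bases in shNC. For DNAJB11 it was 1816 to 1834 and 1812 to 1837 bases with shSNHG1#1 and shSNHG1#2, against 1997 to 2029 bases in shNC. DNAJB11, an HSPA5 cochaperone, was not called by counts (0.07 and -0.05) and was higher by FPKM (0.26 and 0.16, adjusted p = 0.00011 and 0.00239). A gene's implied length varies when its reads are shared out differently among its transcripts. The scaling also differed. Counts were scaled with TMM factors, 0.9986 to 1.0273 with the hairpins and 0.9714 to 0.9789 in shNC, and FPKM to mapped fragments. The part of either in the differences was not tested. Counts and FPKM gave the same call for 27 of 31 members with shSNHG1#1 and 23 of 31 with shSNHG1#2. Called by FPKM and not by counts were DNAJB11 with both hairpins and DERL1 and SEC61B with shSNHG1#2, all higher.

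**Figure D4:**
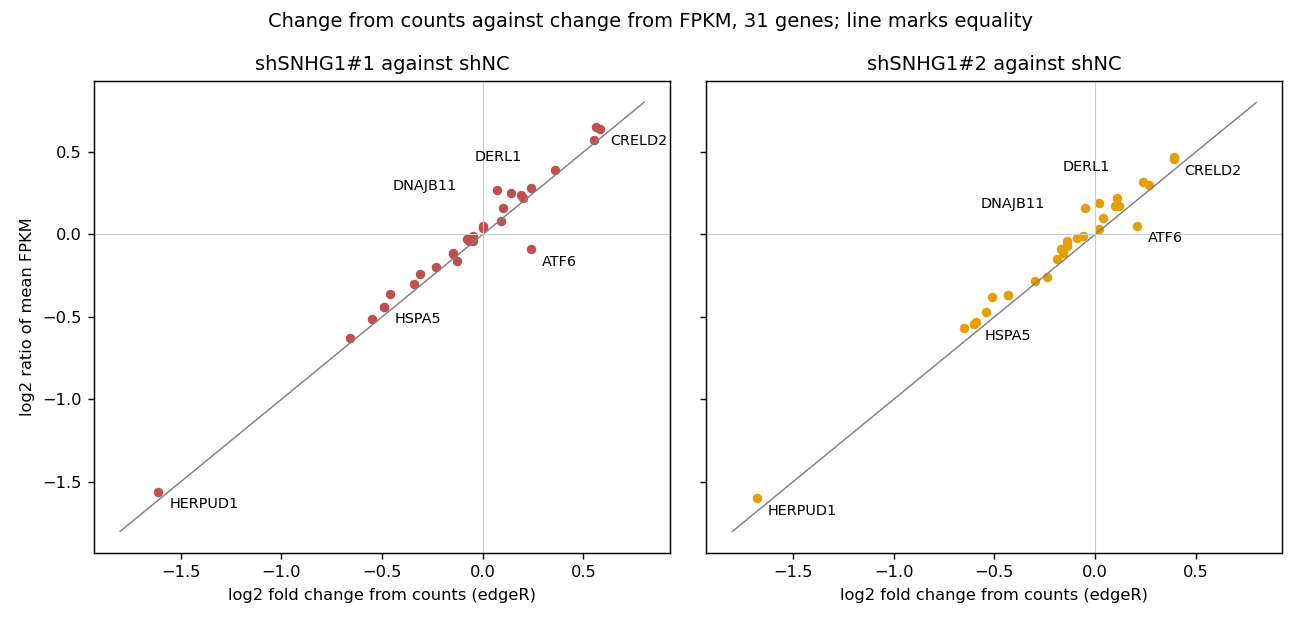
Log2 fold change from counts (edgeR, x axis) against the log2 ratio of mean FPKM (y axis) for 31 genes, each hairpin against shNC, with a line of equality. Most points lie just above the line, ATF6 lies below it (0.24 and -0.09 with shSNHG1#1; 0.21 and 0.05 with shSNHG1#2) and DNAJB11 above it (0.07 and 0.27; -0.05 and 0.16).

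Genes of protein entry and exit had the smallest median change by size among the roles, 0.09 with shSNHG1#1 and 0.05 with shSNHG1#2 on the log2 scale. SEC61A1 and SEC61B, the alpha and beta subunits of the translocation channel, and SSR1, a subunit of the complex beside it, rose with shSNHG1#1 by 0.10, 0.19 and 0.09 on the log2 scale (adjusted p = 0.0124, 0.0318 and 0.0191). None passed with shSNHG1#2, and each of the 3 calls was lost under at least 3 other settings, among them leaving out shSNHG1#1 replicate 3 or shNC replicate 1. SEC24D, a cargo adaptor of COPII vesicles, passed with neither hairpin (0.00 and -0.06).

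Between the hairpins the members differed little. In shSNHG1#2 against shSNHG1#1, PDIA4 and DERL1 were called lower and none was called higher (6.45% of 31 members, against 3.12% of all features, 1.12% in the lower and 2% in the higher direction, and 4.76% of those at the members' levels). PDIA4 was lower by a log2 fold change of -0.13 (SE 0.024, adjusted p = 0.0201) and DERL1 by -0.12 (SE 0.027, adjusted p = 0.0435). The PDIA4 libraries held 206 to 208 FPKM with shSNHG1#2, against 213 to 222 FPKM with shSNHG1#1, and DERL1 overlapped in FPKM. The call of DERL1 was lost in each of the 9 fits that left out a library, and that of PDIA4 in 4 of them, so that without shSNHG1#1 replicate 1 no member was called. At an unadjusted p below 0.05, 17 of the 31 were lower and none was higher, against 2951 of all 18767 features in either direction. DESeq2 called 8 members lower and 0 higher, against 970 of all features in either direction. The unadjusted count over all features was not split by direction, and neither count was computed at the members' levels. In scaled counts 17 members lay lower in every shSNHG1#2 library than in every shSNHG1#1 library and none higher. Of all features, 20.8% had no overlap in either direction (2009 higher and 1890 lower). The median log2 fold change of members was -0.08, against -0.002 over all features.

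Members with and without a promoter element were then set side by side. Of the 10 members with ERSE or ERSE-II, shown above, 6 fell, 3 rose and 1, CANX, did not pass with shSNHG1#1. With shSNHG1#2, 7 fell, 2 rose and 1, SDF2L1, did not pass. Of all features 23.5% were lower and 24.5% higher with shSNHG1#1, and 22.8% and 23.3% with shSNHG1#2, and of those at the members' levels 34.1% and 30%, and 33.1% and 28.7%. The lowest fold changes were those of HERPUD1, with ERSE-II (log2 fold changes -1.61 and -1.68). The highest with shSNHG1#1 was that of CRELD2, with ERSE (0.58), while with shSNHG1#2 CRELD2 and EDEM3, whose window holds neither element, stood level (0.39 each). HYOU1, with a pair of ERSE-II matches, rose, and HSP90B1, with a pair of ERSE matches, fell. Of the 18 members with a window and neither element, 6 fell and 6 rose with shSNHG1#1, and 10 fell and 3 rose with shSNHG1#2. Among 24 tested genes outside the list that hold an element, 7 fell and 6 rose with shSNHG1#1, and 8 fell and 5 rose with shSNHG1#2. A match is a description of letters in this window and does not show binding.

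Other genes of the same pathway were described from 6 lists with 123 tested genes. With shSNHG1#1, 50 rose and 31 fell, and with shSNHG1#2, 45 rose and 36 fell, with median log2 fold changes of 0.03 and 0.03. The share called was 65.9% with each hairpin. Of all features 48.1% and 46.2% were called, and of those at the members' levels 64% and 61.9%. By direction, 24.5% and 23.3% of all features were higher, and 23.5% and 22.8% lower. Sensors and stress outputs had the highest share lower of the 6 lists, 58.8% (10 of 17) with each hairpin, with 4 higher (82.4% called). DDIT3 (CHOP), a transcription factor of prolonged stress, averaged 26.1 ± 3.02 and 31.7 ± 0.953 FPKM with shSNHG1#1 and shSNHG1#2, against 107.6 ± 2.29 FPKM in shNC, with log2 fold changes of -1.61 and -1.54 (adjusted p = 4.7e-10 and 7.4e-10). PPP1R15A (GADD34), which restores translation after stress, had log2 fold changes of -1.60 and -1.55, and TRIB3, a pseudokinase induced by CHOP, of -1.23 and -1.13. EIF2AK3, which encodes PERK, fell by 0.50 and 0.51, and ATF4, the transcription factor downstream of it, by 0.40 and 0.47. The 4 higher genes were the same with both hairpins. WFS1, which encodes wolframin, rose by 1.01 and 0.85, CHAC1 by 0.62 and 0.56, ASNS by 0.34 and 0.32, and RTCB by 0.30 and 0.23. EIF2AK3, ATF4 and these 4 genes were chosen after their values were seen.

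Among 23 other folding enzymes, 10 rose and 4 fell with shSNHG1#1, and 9 rose and 5 fell with shSNHG1#2. With each, 60.9% were called, beside 48.1% and 46.2% of all features and 64% and 61.9% at the members' levels. ERO1A, the oxidase that recharges disulfide isomerases, averaged 44.7 ± 2.19 and 53.4 ± 1.45 FPKM with shSNHG1#1 and shSNHG1#2, against 103.3 ± 2.54 FPKM in shNC (log2 fold changes -1.04 and -0.79). It was also higher in shSNHG1#2 than in shSNHG1#1 (0.26, adjusted p = 0.0019). QSOX1, another sulfhydryl oxidase, fell by 0.55 and 0.51, and CALU, a calcium-binding protein of the secretory pathway, rose by 0.67 and 0.59. Of 17 glycosylation and lectin cycle genes, 6 rose and the other 11 did not pass with shSNHG1#1, and 5 rose and 2 fell with shSNHG1#2. The shares called, 35.3% and 41.2%, lay below the 48.1% and 46.2% of all features. DPAGT1, which starts the glycan precursor, rose by 0.46 and 0.39, and UGGT2, a folding sensor that adds glucose, by 0.30 and 0.45.

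Of 23 other degradation genes, 8 rose and 5 fell with shSNHG1#1, and 6 rose and 7 fell with shSNHG1#2. The share called was 56.5% with each, beside 48.1% and 46.2% of all features and 64% and 61.9% at the members' levels. VCP (p97), the ATPase that pulls chains out of the membrane, rose by 0.31 and 0.25, its cofactor UFD1 by 0.54 and 0.34, and NGLY1, which removes glycans from extracted chains, fell by 0.80 and 0.71. The translocon and signal peptide list had 10 rising and 8 falling of 22 with shSNHG1#1 (81.8% called), and 9 and 8 with shSNHG1#2 (77.3%). SEC61G, the gamma subunit of the channel, fell by 0.75 and 0.79, whereas SEC61A1 and SEC61B were not called lower, and TRAM2, a membrane protein beside the channel, fell by 1.01 and 0.86. For vesicle export and retrieval (COPII), 12 rose and 4 fell of 21 with each hairpin (76.2% called). Of all features 24.5% were higher and 23.5% lower with shSNHG1#1, and 23.3% and 22.8% with shSNHG1#2. At the members' levels these shares were 30% and 34.1%, and 28.7% and 33.1%. SAR1A, the GTPase that starts the COPII coat, rose by 0.65 and 0.53, and SEC24A, another cargo adaptor, fell by 0.52 and 0.45.

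**Figure D5:**
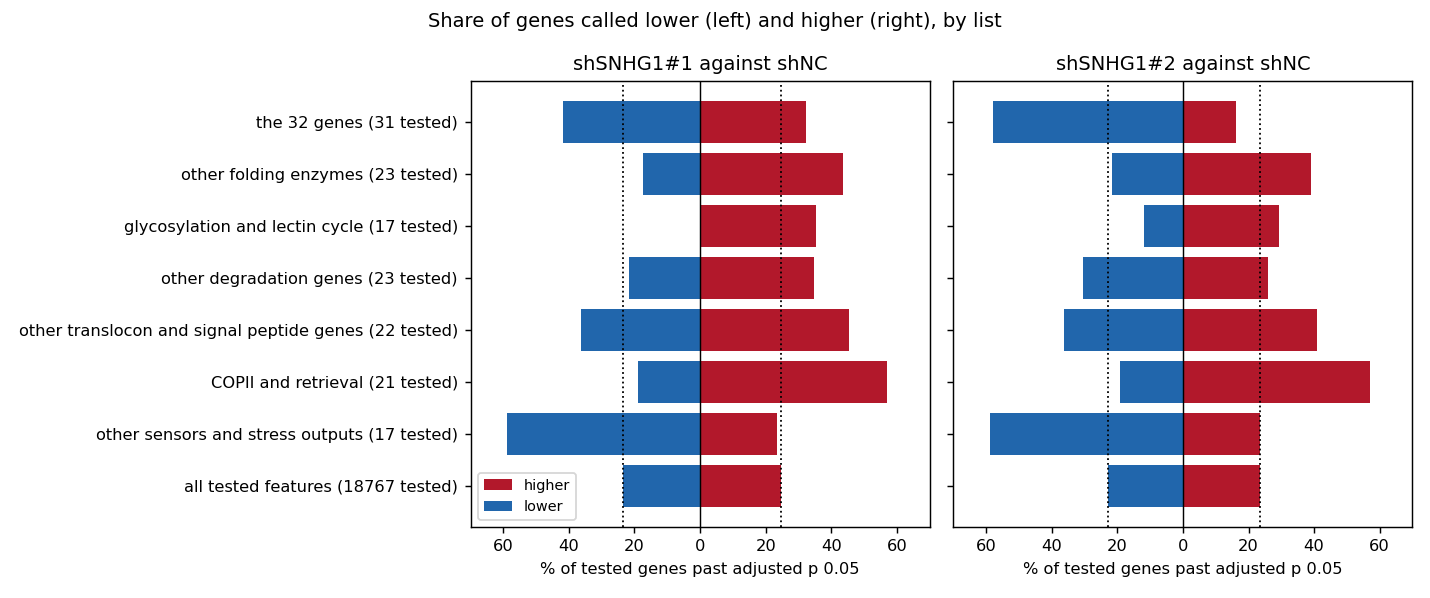
Share of tested genes called lower (left of 0) and higher (right of 0) at an adjusted p below 0.05, for the 32 genes, 6 lists of other genes of the pathway and all 18767 features, with dotted lines at the shares of all features. With shSNHG1#2 the 32 genes have 58.1% lower and 16.1% higher, and COPII and retrieval genes 19.0% lower and 57.1% higher.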

How the data were processed

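Per the labels' protocols, RNA was taken up in Trizol and sequenced from BGI libraries. The authors deposited an estimated count and an FPKM value per feature and library. Per the file headers, these columns are named for each library; that the second holds FPKM was read from its values. Per the submitters' processing notes the tools were RSEM 1.2.12, HISAT2 2.0.4, DESeq2 1.4.5 and Bowtie2 2.2.5. Genome build, annotation and strand use are not stated there, and values of overlapping genes are uncertain.

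The members and lists were chosen with earlier results of these data known. Rounded counts entered edgeR 4.0.16 (R 4.3.3), with TMM factors, filterByExpr by group (18767 features kept) and a quasi-likelihood F test over all 9 libraries, modelled by group alone. Benjamini-Hochberg adjustment ran over all tested features, with a threshold of 0.05. Standard errors came from the F statistic. The 95% intervals of log2 fold changes used a normal distribution with these errors, and they are narrower than the F test would give. The test was also run on simulated counts with the same spread for all features and few of them changed. These data differ in both, so that run does not vouch for the calls. Features without a gene symbol, 3804 in all, stayed in the fit because each has its own gene identifier in the table, and they held 8.18 to 15.9% of counts; a fit without the 2 largest was added after seeing the data.

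Alternatives were library totals, DESeq2 size factors, no filter, only the groups compared, a replicate block, DESeq2 1.42.0, limma 3.58.1 on log2(FPKM + 0.5) or log2(FPKM + 0.1), which understates low genes, and leaving out each library. Replicates of a group differed by more than counting noise, so none was merged. Same-numbered libraries of different groups did not deviate together (correlations -0.036 to 0.032), and the numbers were not taken as pairs. Values per library are printed for the 10 members with the largest mean change among those called alike with both hairpins, those called between hairpins, XBP1, ATF6 and ERN1, and the 3 highest and 3 lowest in level. EDEM2 values were added after they were seen. Of each other list, up to 3 genes with the smallest p per contrast were eligible for naming, and some of these are not reported. The marker OTX2 was not analysed here.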

Additional observations from a re-analysis of the deposited data

Results flagged for a closer look

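PDIA4 and DERL1 differed between the hairpins by a test of the difference itself, in shSNHG1#2 against shSNHG1#1. PDIA4 had a log2 fold change of -0.13 (edgeR, adjusted p = 0.0201), with levels of 208, 206 and 207 FPKM with shSNHG1#2, against 222, 213 and 218 FPKM with shSNHG1#1. DERL1 had a log2 fold change of -0.12 (adjusted p = 0.0435), with 32.03, 32.4 and 33.3 FPKM with shSNHG1#2, against 33.5, 33.0 and 35.0 FPKM with shSNHG1#1. By FPKM neither passed (limma, adjusted p = 0.17 for PDIA4 and 0.439 for DERL1). The call of PDIA4 was lost under 8 of the other settings and that of DERL1 under 16. Outlying libraries were not tested for in groups of 3.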

How the results depend on the processing

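Of the calls against shNC, 5 of 10 higher and 11 of 13 lower members kept their call under every setting with shSNHG1#1, and 3 of 5 higher and 14 of 18 lower with shSNHG1#2; between hairpins 0 of 2 did. The cause of the changes below was not tested. With library totals the median log2 fold change of members was -0.005 with shSNHG1#1 and -0.072 with shSNHG1#2, with 8 members higher with shSNHG1#2. With shSNHG1#2 the median was also -0.146 without a filter, -0.068 and -0.070 by FPKM with the larger and smaller pseudocount, and -0.156 without the 2 largest unnamed features. Leaving out 1 library gave medians of -0.071 to -0.057 (shSNHG1#1) and -0.148 to -0.125 (shSNHG1#2), and 6 to 9 members higher with shSNHG1#1.

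Between hairpins, members called lower numbered 0 with library totals, in a fit of these groups only and by FPKM at both pseudocounts, 1 with DESeq2 size factors, without a filter and with the replicate block, 8 with DESeq2, and 0 to 1 without 1 library. All features called numbered 386 in a fit of these groups only, 970 with DESeq2 and 297 to 534 without 1 library, against 586. Calls in the 123 other genes numbered 3 in a fit of these groups only, with the replicate block and by FPKM at both pseudocounts, 11 with DESeq2 and 1 to 4 without 1 library, against 5. By FPKM the members' median was -0.061 at both pseudocounts. Higher calls were 74.8% of all calls with library totals, against 64.0% with TMM. The replicate numbers are not shown to pair the libraries; with the replicate block 10 members were higher and 11 lower with shSNHG1#1, and 5 higher and 18 lower with shSNHG1#2.

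Signs turned only for values that counts did not call, except for ATF6 against shNC, called by counts and not by FPKM. With shSNHG1#1, P4HB (0.001) became -0.011 with DESeq2 size factors and with DESeq2, -0.012 without a filter, -0.015 with these groups only, -0.018 without the unnamed features and -0.026 to 0.015 without 1 library. SEC24D (0.001) became -0.011 with DESeq2 size factors, without a filter and with DESeq2, -0.014 with these groups only, -0.017 without the unnamed features and -0.058 to 0.029 without 1 library. ATF6 became -0.081 and -0.082 by FPKM. With shSNHG1#2, DNAJB11 became 0.014 with library totals and 0.157 and 0.159 by FPKM, SEC24D 0.001 with library totals, and without 1 library SDF2L1 ran from -0.010 to 0.158 and EDEM2 from -0.022 to 0.527, both lowest without shNC replicate 1. Between hairpins, OS9 became 0.009 with library totals, 0.006 by FPKM at both pseudocounts, and -0.018 to 0.020 without 1 library, and ATF6 0.131 and 0.133 by FPKM. Without 1 library ATF6 ran from -0.063 to 0.021, ERN1 from -0.024 to 0.038 and DNAJB9 from -0.011 to 0.071. Depth limits DERL3, whose counts were too few to test.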
